A study of Mus musculus with 6 samples.

Results

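The genes described here are 10 regulators of the G1 phase and of entry into mitosis: the D-type cyclins Ccnd1, Ccnd2 and Ccnd3, the E-type cyclins Ccne1 and Ccne2, the CDK inhibitors Cdkn1a, Cdkn1b, Cdkn2a and Cdkn2b, and the kinase gene Wee1. They were chosen by name, and all 10 were found among the 27179 genes of the count tables and among the 14069 genes tested. The experiment asked which mRNAs differ when 1 cryptochrome is put back into fibroblasts that lack most repressors of the circadian clock. The 3 lines were CPN-/-, CPN-/- CRY1 and CPN-/- CRY2, with 2 libraries of polyA RNA per line, each from its own RNA preparation.

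The parental CPN-/- line was a mouse embryonic fibroblast (MEF) line of the genotype Cry1-/-, Cry2-/-, Per1-/-, Per2-/-, Nr1d1-/-, Nr1d2-/-, and both derived lines carried the same deletions. CPN-/- CRY1 and CPN-/- CRY2 expressed the mouse protein from an integrated retroviral vector. Each was grown from a single blasticidin-resistant colony, so that the added protein and the history of 1 clone cannot be told apart. Cells were grown in DMEM with serum, were given no treatment and were collected before confluence without a stated synchronization.

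Progress through G1 is set by the balance between cyclins and CDK inhibitors. D-type cyclins activate CDK4 and CDK6, E-type cyclins activate CDK2, and these kinases phosphorylate the retinoblastoma protein and so release E2F factors. The Cip/Kip inhibitors p21 (Cdkn1a) and p27 (Cdkn1b) bind cyclin-CDK complexes, the INK4 proteins p16 (Cdkn2a) and p15 (Cdkn2b) bind CDK4 and CDK6, and WEE1 holds CDK1 inactive by tyrosine phosphorylation. Wee1 and Cdkn1a are also known as genes under circadian control, which links the clock to the cell cycle.

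The libraries held between 25957409 and 36106949 counts, and no member had fewer than 780 counts in any of them. Cry1 was at 125 and 115 counts normalized to library size (CPM) in the CPN-/- libraries, at 165 and 189.6 CPM in CPN-/- CRY1, and at 51.0 and 48.3 CPM with CRY2. Cry2 was at 136 and 129 CPM in CPN-/-, at 50.7 and 51.7 CPM in CPN-/- CRY1, and at 349 and 351 CPM with CRY2. Each added gene was highest in the line named for it. Which part of each gene was deleted is not given in the sources used here, so the counts that remain in CPN-/- do not test the deletion. The fibroblast genes Col1a1, Col1a2 and Vim were above 2179 CPM in every library. Pdgfrb had 3091 to 9573 counts, Pdgfra 979 to 2949 and Col3a1 258 to 381, whereas Thy1 had only 1 to 7 counts. Markers of other cell types were near the floor, with Epcam at 0 and Ptprc at 0 to 2 counts, and Cd68 reached 65 counts. The 2 CPN-/- libraries differed more from each other than the pairs of the other lines. Over the tested genes, library 1 minus library 2 on the log2 scale had an SD of 0.375 for CPN-/-, against 0.153 for CPN-/- CRY1 and 0.163 for CPN-/- CRY2, and in CPN-/- this difference followed transcript length (Spearman's rho 0.604 over 12478 genes). Its part in the results was not tested beyond the fits that removed the length trend or left out a CPN-/- library.

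**Figure D1:**
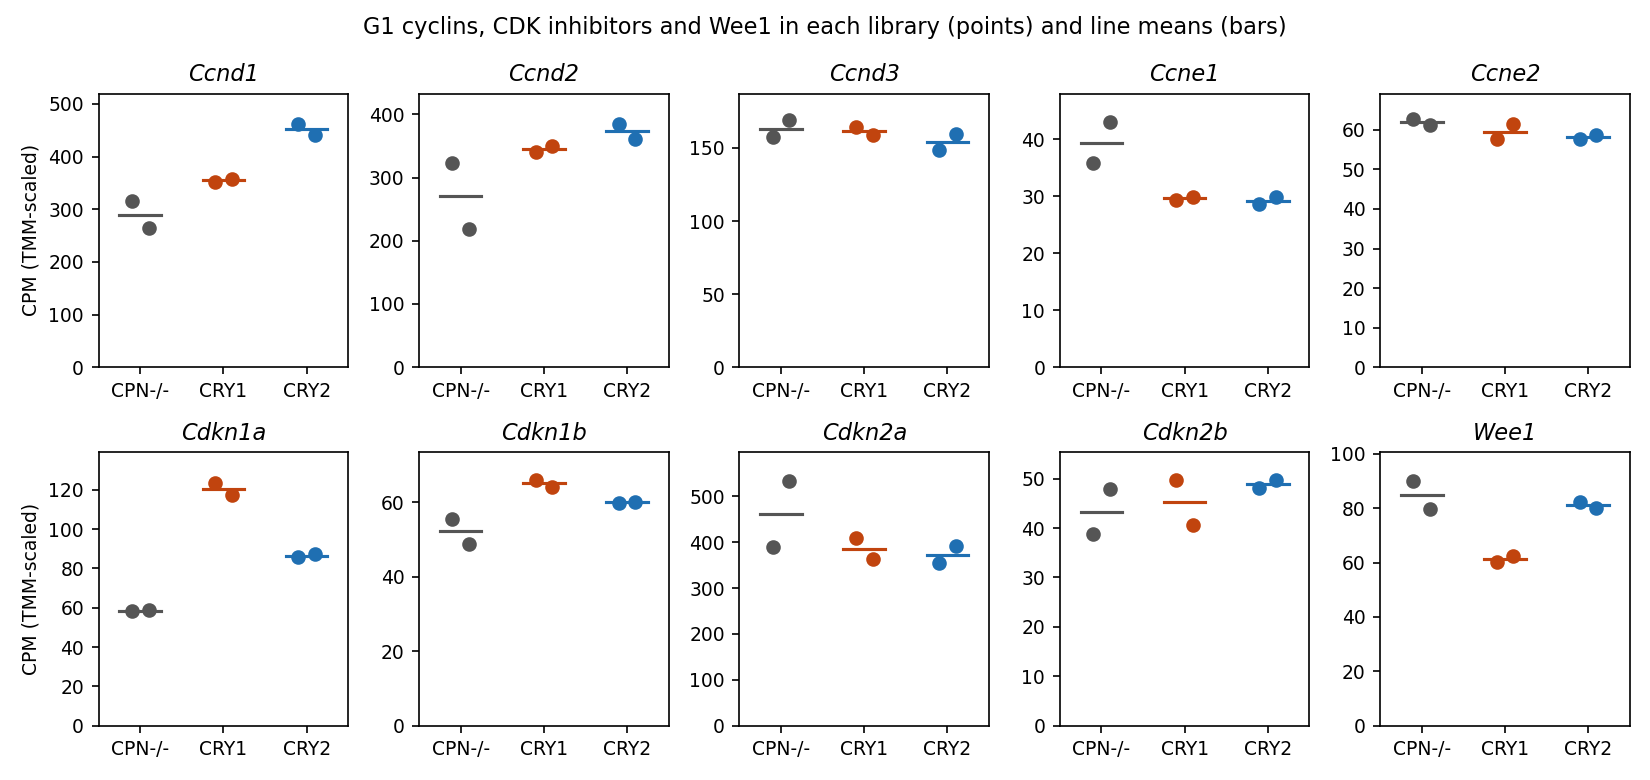
Level of each of the 10 genes in every library, in CPM on TMM-scaled library sizes on a linear axis from 0, with 1 point per library and a bar at the mean of each line. Cdkn1a separates all 3 lines, Wee1 is low in both CPN-/- CRY1 libraries, and the CPN-/- libraries of Ccnd2 and Cdkn2a lie far apart.

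Cdkn1a, which encodes the CDK inhibitor p21, differed most among the 10 genes. Its level was 58.2 and 58.7 CPM in CPN-/-, 123 and 117 CPM in CPN-/- CRY1, and 85.6 and 87.1 CPM in CPN-/- CRY2. The 3 lines did not overlap, and the order was CPN-/-, then CPN-/- CRY2, then CPN-/- CRY1. Against CPN-/-, the log2 rise of Cdkn1a with CRY1 was 1.04 ± 0.09 (SE, n = 2 libraries per line), or 2.06-fold, with an adjusted p of 6.8e-04 in edgeR. Throughout, p-values came from the quasi-likelihood test of edgeR and were adjusted by the Benjamini-Hochberg method. With CRY2 it rose by 0.56 ± 0.09, or 1.48-fold (adjusted p = 0.013 in edgeR). The direct comparison of the CRY lines gave a difference of 0.48 ± 0.09 (adjusted p = 0.014 in edgeR), higher in CPN-/- CRY1. Cdkn1a shares 273 exonic bases with AC167363.2 on the opposite strand. Stretches of its transcripts also match several other genes at 95% or more, such as Slc3a2 over 163 bases, so its counts carry that uncertainty. RNA came from whole cultures, so more RNA per cell and more cells that express a gene cannot be told apart.

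The rise in CPN-/- CRY1 passed the threshold in all 13 other settings that were tried, with values from 1.01 to 1.16. The CPN-/- CRY2 rise kept its size, between 0.56 and 0.69, but its adjusted p was 0.070 with only the 4 libraries of the comparison. It was 0.070 as well without either CPN-/- CRY1 library, 0.155 without CPN-/- CRY2 library 1 and 0.171 without CPN-/- CRY2 library 2. The difference between the CRY lines lost its call without any 1 of their 4 libraries (adjusted p from 0.125 to 0.167).

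The sequence before the annotated starts of Cdkn1a is shown because this gene changed most and p21 is a known target of p53. RefSeq gives it 2 starts on the plus strand (GRCm38.p6), at the 3′ ends of the regions chr17:29090729-29090978 and chr17:29093519-29093768. Lower case letters are the 250 bases before each start, and capitals mark a pair of p53 half-sites with at most 1 mismatch and no spacer, a search chosen after the data were seen.
Cdkn1a, first start: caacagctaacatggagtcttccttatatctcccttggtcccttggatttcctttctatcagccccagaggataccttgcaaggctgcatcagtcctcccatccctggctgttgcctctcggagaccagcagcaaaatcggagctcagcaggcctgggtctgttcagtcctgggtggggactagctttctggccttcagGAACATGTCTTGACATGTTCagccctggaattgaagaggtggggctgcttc
Cdkn1a, second start: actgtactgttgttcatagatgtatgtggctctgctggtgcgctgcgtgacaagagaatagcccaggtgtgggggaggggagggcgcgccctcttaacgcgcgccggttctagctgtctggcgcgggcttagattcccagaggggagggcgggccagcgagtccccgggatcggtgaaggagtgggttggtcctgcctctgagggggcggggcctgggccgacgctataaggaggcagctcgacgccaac
The first region had a GC content of 54.0% and held the pair with its first base at position -51. The second had a GC content of 64.8% and no match. Over windows from 250 bases before to 50 bases after a start, 29 of 32851 windows (0.0883%) held such a pair. A match is a description of the letters and not a bound site. Trp53, which encodes p53, was at 143 and 149 CPM in CPN-/-, 146 and 149 CPM in CPN-/- CRY1, and 124 and 133 CPM in CPN-/- CRY2. Its log2 differences from CPN-/- were 0.02 ± 0.09 (adjusted p = 0.89 in edgeR) and -0.18 ± 0.09 (adjusted p = 0.26). Mdm2, a p53 target that encodes its ubiquitin ligase, lay 0.30 ± 0.10 above CPN-/- in either CRY line without a call (adjusted p = 0.066 and 0.13 in edgeR). In either line it was 0.37 without CPN-/- library 1. Without CPN-/- library 2 it was 0.23 with CRY1 and 0.24 with CRY2. With the length trend removed it was called in either line (0.32 and 0.34).

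RefSeq windows were found for 6 of the 10 members, namely Ccnd3, Ccne1, Cdkn1a, Cdkn1b, Cdkn2a and Cdkn2b, and not for Ccnd1, Ccnd2, Ccne2 and Wee1. The E-box CACGTG, the motif bound by CLOCK-BMAL1, was in 0 of these 6 genes, and 8.09% of 27025 genes held it in a window, on either strand. The E2F strings TTTGGCGC and TTTCGCGC were in 0 of the 6 (0.929% of all genes), and the ROR response element was in 0 of the 6 (0.459% of all genes).

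Cdkn1b, which encodes p27, was at 55.6 and 48.9 CPM in CPN-/-, 66.0 and 64.2 CPM in CPN-/- CRY1, and 59.9 and 60.1 CPM in CPN-/- CRY2. Both CRY lines lay above CPN-/- with no overlap, yet neither difference was called. The difference was 0.32 ± 0.10 in CPN-/- CRY1 (adjusted p = 0.062 in edgeR) and 0.20 ± 0.10 in CPN-/- CRY2 (adjusted p = 0.27). In CPN-/- CRY1 the value was 0.42 without CPN-/- library 1 and 0.24 without CPN-/- library 2. It was called with the length trend removed (0.37). With CRY2 the value was 0.30 without CPN-/- library 1 and 0.12 without CPN-/- library 2. Per transcript length, Cdkn1a made up 57.3% and 60.6% of the Cip/Kip level of these 2 genes in CPN-/-, 70.5% and 70.1% with CRY1, and 64.7% and 65.0% with CRY2. The share of Cdkn1b was the remainder and was lowest in CPN-/- CRY1.

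Wee1 was lower in CPN-/- CRY1 and not in CPN-/- CRY2. Its level was 90.1 and 79.8 CPM in CPN-/-, 60.1 and 62.4 CPM in CPN-/- CRY1, and 82.3 and 80.2 CPM in CPN-/- CRY2. Both CPN-/- CRY1 libraries were below the other 4 libraries, while CPN-/- CRY2 overlapped CPN-/-. On the log2 scale Wee1 fell by 0.47 with CRY1 (SE 0.10, adjusted p = 0.017 in edgeR), to 0.721 times the parental level. The difference with CRY2 was -0.06 ± 0.10 (adjusted p = 0.70 in edgeR), and the direct comparison of CPN-/- CRY1 with CPN-/- CRY2 gave -0.41 ± 0.10 (adjusted p = 0.036).

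The size of the Wee1 fall in CPN-/- CRY1 ranged from -0.55 to -0.34 over the 13 other settings. Its adjusted p was 0.062 with only the 4 libraries of the comparison, 0.16 and 0.14 without CPN-/- CRY1 library 1 or 2, and 0.065 without either CPN-/- CRY2 library. The direct difference lost its call without any 1 of the 4 CRY libraries (adjusted p from 0.219 to 0.273). The median over genes of chromosome 7, where Wee1 lies, was -0.01 in the same comparison with CPN-/-.

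Among the D-type cyclins, Ccnd1 was called in CPN-/- CRY2. It was at 315 and 264 CPM in CPN-/-, 352 and 357 CPM in CPN-/- CRY1, and 463 and 440.4 CPM in CPN-/- CRY2. The 3 lines did not overlap, and CPN-/- CRY2 was highest. With CRY2 the log2 rise of Ccnd1 was 0.64 ± 0.12, or 1.56-fold (adjusted p = 0.022 in edgeR), and its difference in CPN-/- CRY1 was 0.29 ± 0.11 (adjusted p = 0.10). The latter was 0.43 without CPN-/- library 1 and 0.18 without CPN-/- library 2. With the length trend removed it was called at 0.34 (adjusted p = 0.019 in edgeR). CPN-/- CRY1 minus CPN-/- CRY2 was -0.35 ± 0.11 (adjusted p = 0.087 in edgeR), so that the 2 effects were not shown to differ in the fit of all libraries. That difference was called with the 4 CRY libraries alone (adjusted p = 6.3e-06), without either CPN-/- library, and with the length trend removed. The rise in CPN-/- CRY2 ranged from 0.53 to 0.78 over the settings, and its adjusted p was 0.094 with 4 libraries, 0.093 without either CPN-/- CRY1 library, and 0.213 and 0.158 without CPN-/- CRY2 library 1 or 2. Ccnd1 shares 1100 exonic bases with LTO1 on the opposite strand, and the strand setting of the counting is not given in the sources used here. LTO1 had 590 to 1002 counts, against at least 6875 for Ccnd1, and its own difference in CPN-/- CRY2 was -0.0044 (adjusted p = 0.98 in edgeR).

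Ccnd2 was at 323 and 218 CPM in CPN-/-, 341 and 349 CPM in CPN-/- CRY1, and 385 and 362 CPM in CPN-/- CRY2. The CRY libraries were all above the CPN-/- libraries, but the CPN-/- pair itself was wide. The differences of 0.35 ± 0.18 and 0.47 ± 0.18 were not called (adjusted p = 0.18 in edgeR for both). In CPN-/- CRY1 the value was 0.66 without CPN-/- library 1 and 0.10 without CPN-/- library 2. The value with CRY2 was 0.78 without CPN-/- library 1 and 0.22 without CPN-/- library 2. Ccnd2 shares 368 exonic bases with 9330179D12Rik and 372 with Gm43126, both on the opposite strand.

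Ccnd3 was at 157 and 169 CPM in CPN-/-, 164 and 159 CPM in CPN-/- CRY1, and 149 and 159.5 CPM in CPN-/- CRY2. The 3 lines overlapped, and the differences from CPN-/- were -0.02 ± 0.10 and -0.08 ± 0.10. Ccnd3 has a processed pseudogene, Ccnd3-ps, that matches it at 96.25% over 881 bases, and its exons overlap Bysl on the opposite strand over 361 bases, so its counts carry that uncertainty. Per transcript length, Ccnd1 was the largest of the D-type cyclins in every library, with 56.1% to 62.9% of their summed level. Ccnd2 held 23.5% to 28.8%, and Ccnd3 held 10.9% to 19.6%. The share of Ccnd1 was highest in the CPN-/- CRY2 libraries, at 62.9% and 62.3%.

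Ccne1 was lower in both CRY lines and was called in 1 of them. Its level was 35.9 and 43.0 CPM in CPN-/-, 29.4 and 29.9 CPM in CPN-/- CRY1, and 28.7 and 29.9 CPM in CPN-/- CRY2. All 4 CRY libraries were below both CPN-/- libraries, and the CRY lines overlapped each other. With CRY1, Ccne1 fell by 0.41 on the log2 scale (SE 0.12, adjusted p = 0.044 in edgeR), and its difference in CPN-/- CRY2 was -0.43 ± 0.12 (adjusted p = 0.087). The direct comparison gave 0.02 ± 0.12 (adjusted p = 0.94 in edgeR). The call in CPN-/- CRY1 was lost with the length trend removed, where the value was -0.21 (adjusted p = 0.087), with only 4 libraries (adjusted p = 0.116), and without any 1 of the CRY libraries (adjusted p from 0.117 to 0.234). With CRY2 the value was -0.55 without CPN-/- library 1 and -0.29 without CPN-/- library 2.

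Ccne2, the other E-type cyclin gene, was at 62.7 and 61.2 CPM in CPN-/-, 57.8 and 61.4 CPM in CPN-/- CRY1, and 57.7 and 58.7 CPM in CPN-/- CRY2. Its differences from CPN-/- were -0.06 ± 0.09 and -0.09 ± 0.09, neither called. The CPN-/- CRY2 libraries lay just below CPN-/- without overlap. Ccne2 shares 609 exonic bases with Ints8 on the opposite strand. Per transcript length, Ccne1 made up 42.9% and 48.0% of the summed E-type cyclin level in CPN-/- and 39.0% to 40.0% in the 4 CRY libraries.

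**Figure D2:**
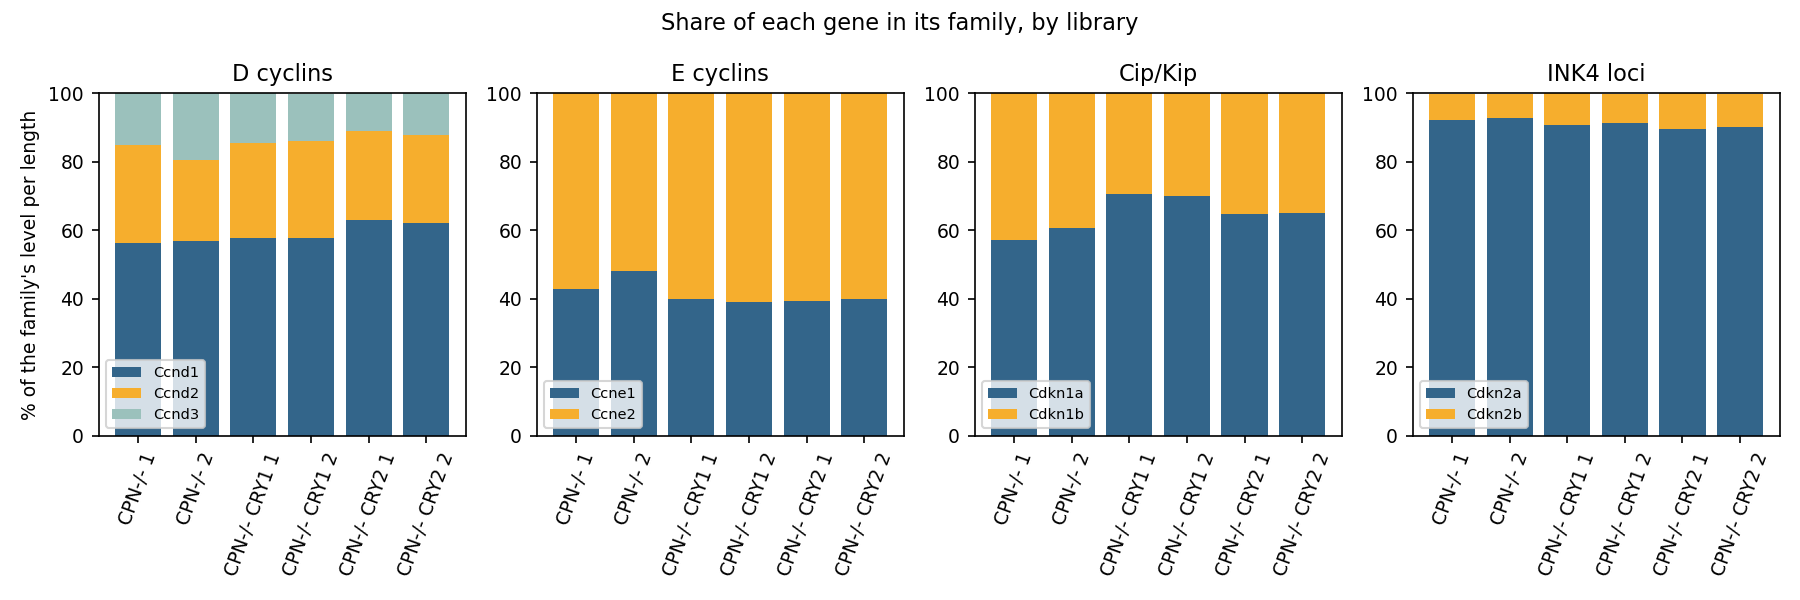
Share of each member gene in the summed level of the members of its family in each library, in percent of the level per transcript length. The families are D-type cyclins, E-type cyclins, Cip/Kip (Cdkn1a and Cdkn1b) and INK4 loci (Cdkn2a and Cdkn2b). Cdkn1a takes 57.3% to 60.6% of the sum of Cdkn1a and Cdkn1b in CPN-/- and 70.1% to 70.5% in CPN-/- CRY1. Cdkn2a takes 89.8% to 93.0% of the sum of Cdkn2a and Cdkn2b in every library.

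The INK4 loci gave no call. Cdkn2a, which encodes p16INK4a and, from another start and reading frame, p19ARF, was at 390.3 and 533 CPM in CPN-/-, 409 and 363 CPM in CPN-/- CRY1, and 355 and 390.5 CPM in CPN-/- CRY2. CPN-/- library 2 stood above all the others, and both CRY lines overlapped CPN-/-. The differences were -0.26 ± 0.16 (adjusted p = 0.27 in edgeR) and -0.31 ± 0.16 (adjusted p = 0.28). Without CPN-/- library 1 they were -0.47 and -0.52, and without CPN-/- library 2 they were -0.01 and -0.06. With the length trend removed, the value in CPN-/- CRY1 was 0.07. Gene counts merge the products of the 2 starts, which could not be separated. Per transcript length Cdkn2a was the most abundant of the 10 genes, above 99.4% of 12478 tested genes with a known length. It held 89.8% to 93.0% of the summed level of Cdkn2a and Cdkn2b. Cdkn2c and Cdkn2d were not part of that sum.

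Cdkn2b, which encodes p15, was at 38.7 and 47.8 CPM in CPN-/-, 49.7 and 40.7 CPM in CPN-/- CRY1, and 48.0 and 49.8 CPM in CPN-/- CRY2. CPN-/- CRY1 overlapped both other lines. The differences from CPN-/- were 0.06 ± 0.14 and 0.18 ± 0.14, neither called. Without CPN-/- library 1 they were -0.08 and 0.03, and without CPN-/- library 2 they were 0.23 and 0.34. With the length trend removed they were 0.36 and 0.42 and called.

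**Figure D3:**
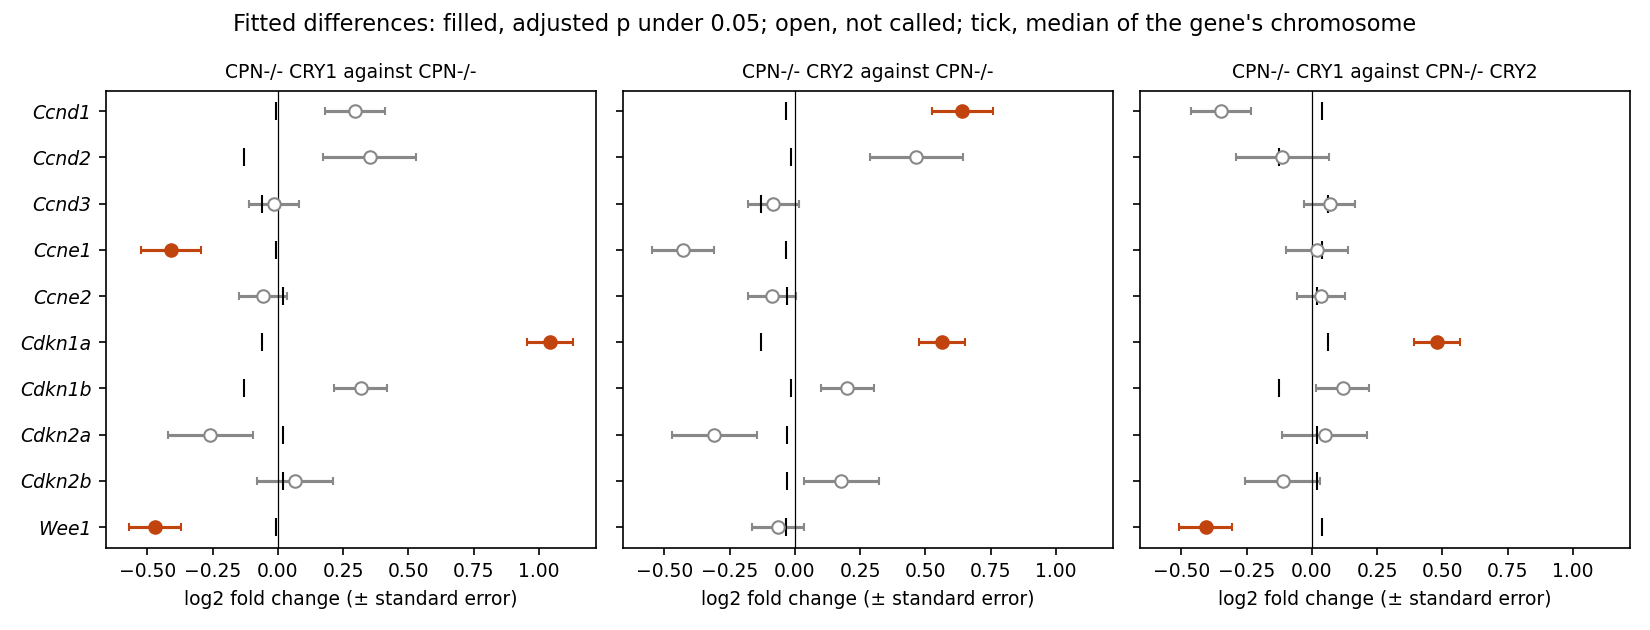
Fitted log2 fold change of each gene in the 3 comparisons, with bars of 1 SE, filled where the adjusted p is under 0.05, and a tick at the median of all tested genes on the same chromosome. Cdkn1a is filled in all 3 panels at 1.04, 0.56 and 0.48, and the chromosome medians lie between -0.13 and 0.06.

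Counted over the list, 3 of the 10 genes were called in CPN-/- CRY1 against CPN-/-, with Cdkn1a higher and Ccne1 and Wee1 lower, where 24.3% of all tested genes were called, 11.2% higher and 13.1% lower. For CPN-/- CRY2 against CPN-/-, 2 were called, Cdkn1a and Ccnd1, both higher, against a background of 6.66%, 2.58% higher and 4.08% lower. In the direct comparison 2 were called, Cdkn1a higher and Wee1 lower in CPN-/- CRY1, against 16.3% of all genes, 7.72% higher and 8.57% lower. Both comparisons with CPN-/- use the same 2 parental libraries. The share in CPN-/- CRY1 was thus near that of all genes. The median size of the log2 difference was 0.31 over the 10 genes and 0.30 over all tested genes in CPN-/- CRY1, and 0.25 against 0.22 in CPN-/- CRY2. The libraries did not overlap for 6 genes in CPN-/- CRY1, 4 higher and 2 lower, where 66.9% of all tested genes did not, 32.9% higher and 34.0% lower. For CRY2 it was 7 genes, 5 higher and 2 lower, where 55.1% of all genes did not overlap, 28.0% higher and 27.2% lower. Between the CRY lines 5 genes did not overlap, 2 higher and 3 lower in CPN-/- CRY1, against 73.3% of all genes, 36.4% higher and 36.9% lower. The count in CPN-/- CRY1 was 7 without CPN-/- library 1, 6 without CPN-/- library 2 and 1 without any 1 of the 4 CRY libraries, and the same fits called 8980, 6360 and between 663 and 1805 of all genes. For CRY2 it was 6 and 5 without CPN-/- library 1 or 2 and 0 without any 1 of the CRY libraries, with 8046, 3185 and between 199 and 466 of all genes called. In the direct comparison it was 3 without either CPN-/- library, with 6897 and 6878 of all genes called, and 0 without any 1 of the CRY libraries, with 475 to 495. The members' counts thus moved in the same direction as those of all genes.

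**Figure D4:**
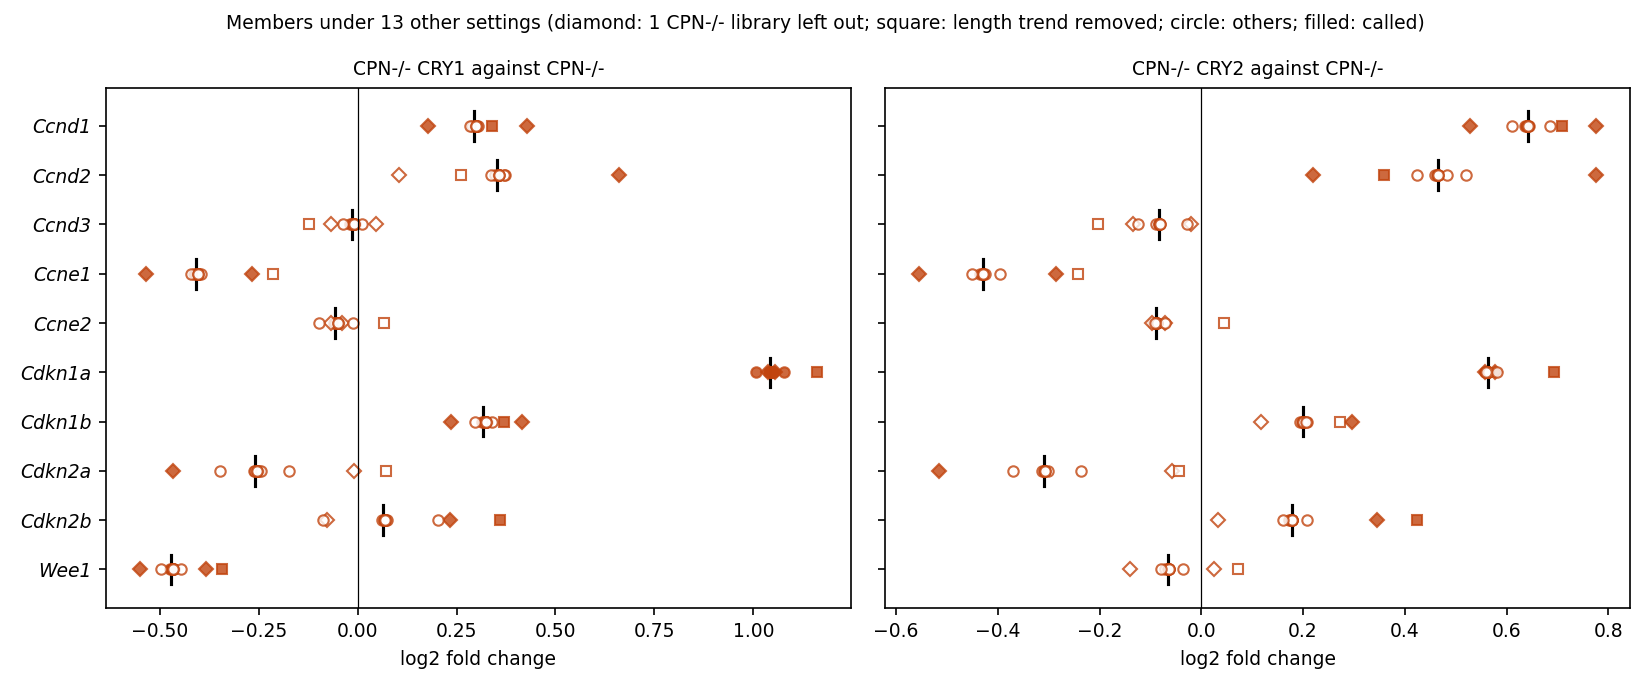
Log2 fold change of each gene under the 13 other settings, against CPN-/-, with a black tick at the fit of all 6 libraries, diamonds where 1 CPN-/- library was left out, squares where the length trend was removed, circles for the rest, and filled symbols for an adjusted p under 0.05. Cdkn1a in CPN-/- CRY1 stays between 1.01 and 1.16 and filled, whereas Ccnd2 in CPN-/- CRY1 moves between 0.10 and 0.66 with the CPN-/- library left out.

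The other genes of the pathway were taken from a list of 39, chosen with earlier results of these data known, and all were tested. In CPN-/- CRY1, 11 were called (28.2%), 4 higher and 7 lower, with a median of -0.02. With CRY2, 3 were called (7.69%), 2 higher and 1 lower, with a median of 0.06. Between the CRY lines 6 were called (15.4%), 1 higher and 5 lower in CPN-/- CRY1. These shares were close to the backgrounds of 24.3%, 6.66% and 16.3%. In the same order, 11.2%, 2.58% and 7.72% of all tested genes were called higher, and 13.1%, 4.08% and 8.57% lower. The count in CPN-/- CRY1 was 28 and 23 without CPN-/- library 1 or 2, 2 and 1 without CPN-/- CRY1 library 1 or 2, and 6 without either CPN-/- CRY2 library, where 8980, 6360, 678, 663, and 1805 and 1802 of all genes were called. For CRY2 it was 23 and 11 without CPN-/- library 1 or 2, 1 without either CPN-/- CRY1 library, and 0 without either CPN-/- CRY2 library, where 8046, 3185, 466 and 463, and 199 and 204 of all genes were called. Between the CRY lines it was 20 without either CPN-/- library (6897 and 6878 of all genes) and 0 without any 1 of the others (475 to 495). Of the calls against CPN-/- named next, that of Cbx7 in CPN-/- CRY1 held in all 13 other settings, and each of the others was lost in 1 to 7 of them.

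Of the kinases that the members activate or inhibit, Cdk1 and Cdk6 were lower in CPN-/- CRY1. Cdk1, the mitotic kinase that WEE1 phosphorylates, was at 494 and 616 CPM in CPN-/-, 398 and 384 CPM in CPN-/- CRY1, and 489 and 514 CPM in CPN-/- CRY2. With CRY1 it fell by 0.51 on the log2 scale (SE 0.13, adjusted p = 0.031 in edgeR). Cdk6, a partner of the D-type cyclins, had only 33 to 179 counts per library. It fell by 1.86 in CPN-/- CRY1 (adjusted p = 0.0053 in edgeR) and differed between the CRY lines by -1.75 (adjusted p = 0.0085). Cdk4, the other D-type partner, gave -0.39 ± 0.12 in CPN-/- CRY1 (adjusted p = 0.063 in edgeR), and Cdk2, the partner of E-type cyclins, gave 0.13 ± 0.09. None of the 4 kinases was called in CPN-/- CRY2, where values were between -0.15 and 0.10. The call of Cdk1 was lost in 5 of the 13 other settings, and that of Cdk6 in CPN-/- CRY1 in 1.

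Downstream of the kinases, the pocket protein gene Rb1 was at 12.4 and 9.98 CPM in CPN-/-, 19.0 and 19.0 CPM in CPN-/- CRY1, and 13.2 and 12.8 CPM in CPN-/- CRY2. It rose by 0.76 ± 0.13 in CPN-/- CRY1 (adjusted p = 0.0096 in edgeR) and was 0.55 ± 0.13 above CPN-/- CRY2 (adjusted p = 0.034). The other pocket protein genes, Rbl1 and Rbl2, were not called in any comparison. Relative to CPN-/-, Rbl1 gave 0.10 with CRY1 and 0.12 with CRY2, whereas Rbl2 gave 0.11 and 0.18. Among 10 E2F and DP genes, E2f6, a repressor E2F, rose in both CRY lines by 0.68 and 0.62 (adjusted p = 0.0075 and 0.023 in edgeR). E2f2, an activator E2F, fell by 0.84 in CPN-/- CRY1 (adjusted p = 0.0057 in edgeR). Tfdp2, a dimer partner of E2F proteins, rose by 0.76 in that line (adjusted p = 0.020 in edgeR). In CPN-/- CRY2, E2f2 gave -0.42 and Tfdp2 gave 0.32 without a call, and neither was called between the CRY lines. The other 7 genes of this group were not called in either line. Ccna2, Ccnb1 and Ccnb2, the cyclins of S phase and mitosis, were not called against CPN-/-, and Ccna2 gave -0.35 in CPN-/- CRY1 against CPN-/- CRY2, a lower level (adjusted p = 0.044 in edgeR), which was called in 7 of the 13 other settings. Ccna2 lies on chromosome 3, whose median in that comparison was -0.40, so that Ccna2 was at 0.05 relative to it. Cdkn1c, the third Cip/Kip inhibitor gene, rose by 1.22 ± 0.27 in CPN-/- CRY2 (adjusted p = 0.045 in edgeR) on 30 to 79 counts per library. In CPN-/- CRY1 it gave 0.35 without a call, and CPN-/- CRY1 minus CPN-/- CRY2 was -0.87 (adjusted p = 0.062 in edgeR). The CDK inhibitor genes Cdkn2c and Cdkn2d, also on the list, were not called in any comparison. Against CPN-/-, Cdkn2c was at 0.31 with CRY1 and 0.10 with CRY2, and Cdkn2d was at 0.08 and -0.28.

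None of 5 genes of CDK1 tyrosine phosphorylation and its checkpoint was called in any comparison. Pkmyt1, which encodes the WEE1-related kinase MYT1, gave -0.18 ± 0.11 with CRY1 and -0.35 ± 0.11 with CRY2 (adjusted p = 0.23 and 0.12 in edgeR). Over the 5 genes, values in CPN-/- CRY1 were between -0.20 and 0.12. At an adjusted p under 0.05 Wee1 was thus the called gene of this step in CPN-/- CRY1, and whether its value differed from theirs was not tested.

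Of 6 ubiquitin ligase genes that act on G1 cyclins and CDK inhibitors, 3 were called lower in CPN-/- CRY1, where 13.1% of all tested genes were. The other 3 were not called, Fbxw7 at 0.03, Ambra1 at 0.04 and Dtl at -0.11. Skp2, which encodes the ubiquitin ligase subunit that recognizes p27, fell by 0.35 (adjusted p = 0.040 in edgeR), its cofactor gene Cks1b fell by 0.84 (adjusted p = 0.011), and Fbxo4 fell by 0.58 (adjusted p = 0.020). In the direct comparison of the CRY lines Skp2, Cks1b and Fbxo4 were called lower with CRY1, at -0.64 each, where 8.57% of all tested genes were. Skp2 and Fbxo4 lie on chromosome 15, where the median of all tested genes was -0.36 in CPN-/- CRY1 against CPN-/-, and Cks1b lies on chromosome 3, where it was -0.28. Relative to their chromosomes, Skp2 was at 0.01, Fbxo4 at -0.22 and Cks1b at -0.56. Between the CRY lines the medians were -0.43 for chromosome 15 and -0.40 for chromosome 3, which left Skp2 and Fbxo4 at -0.21 and Cks1b at -0.24, and the part of the chromosomes in these results was not tested. The call of Skp2 was lost in 7 of the 13 other settings. Among Polycomb genes known to act on the Cdkn2a locus, Cbx7 was at 8.08 and 7.29 CPM in CPN-/-, 3.21 and 3.18 CPM in CPN-/- CRY1, and 4.19 and 4.52 CPM in CPN-/- CRY2. It fell by 1.27 and by 0.82 in the CRY lines (adjusted p = 0.0019 and 0.018 in edgeR). Cbx7 also lies on chromosome 15, and relative to that chromosome it was at -0.90 with CRY1 and -0.87 with CRY2. Bmi1 rose by 0.57 in CPN-/- CRY1 (adjusted p = 0.020 in edgeR). It gave 0.40 in CPN-/- CRY2 without a call and was not called between the CRY lines. Ezh2 was not called in any comparison.

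**Figure D5:**
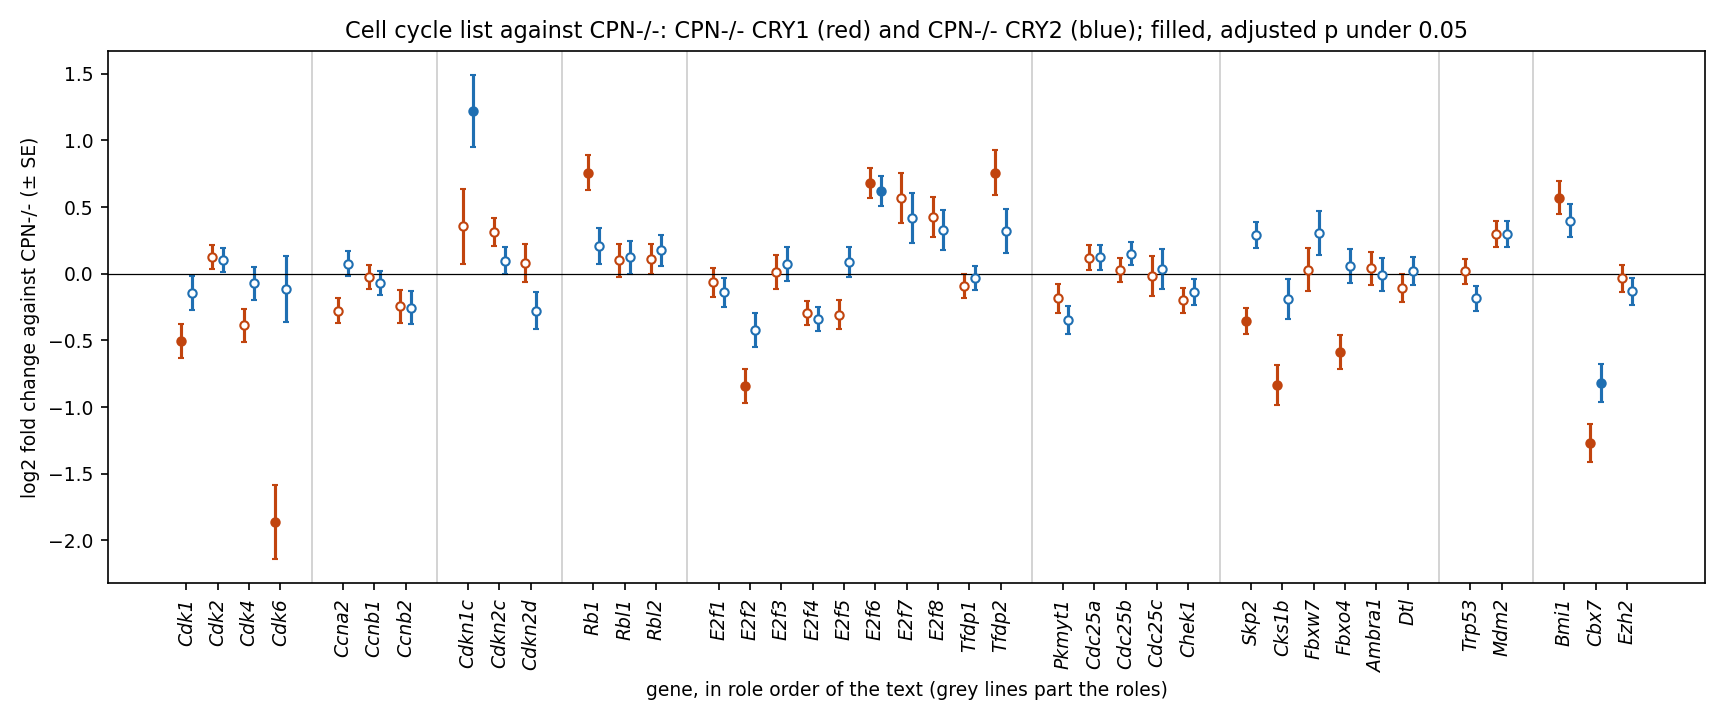
Log2 fold change against CPN-/- of the 39 other cell cycle genes, in red for CPN-/- CRY1 and blue for CPN-/- CRY2, with bars of 1 SE and filled points for an adjusted p under 0.05. The lowest value is that of Cdk6 in CPN-/- CRY1 at -1.86, and E2f6 and Cbx7 are filled in both lines.

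Only Cdkn1a and Ccnd1 among the 10 genes reached a 1.5-fold ratio between the highest and the lowest line mean. Of 11408 genes whose mean count reached 100, Tgfb1i1 and Prr5l were among those with the log2 CPM pattern most like that of Cdkn1a over the 6 libraries (Pearson's r = 0.997 for each). Map2, Unc5c and Ccdc141 were most like Ccnd1, with r of 0.998, 0.998 and 0.997. These are the highest of many correlations over 6 points that share 3 lines, and they are given as a description.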

How the data were processed

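PolyA RNA of 6 MEF libraries was sequenced as stranded paired-end libraries. Per the methods, RNA STAR mapped the reads to mm10 and featureCounts assigned them to genes. The values that the authors deposited are whole counts by NCBI Gene identifier, without normalization. The annotation, strand setting and handling of multiply matching reads are not given in the sources used here.

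Counts were used as deposited. Of 27179 genes, 25275 had a RefSeq symbol and 21572 a GENCODE exon length. R 4.3.3 and edgeR 4.0.16 were used with filterByExpr (minimum count 10, total 15), TMM factors and the robust quasi-likelihood test with the line as the only term over all 6 libraries. P-values were two-sided and adjusted by Benjamini-Hochberg over 14069 genes, with calls under 0.05. SEs were derived from the log2 fold change and its F statistic. CPM used TMM-scaled totals, and levels per length were scaled to the same sum in each library (TPM). The script was tested on simulated data.

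The named genes were all 10 members, the 4 kinases and at most 3 genes of each other pathway role with the smallest adjusted p, Cry1 and Cry2, and the 3 genes most like a member with a 1.5-fold range, of which 1 is not reported here. Of the E2F and DP role and the checkpoint role, the remaining genes are given as counts and ranges. Members and lists were chosen with earlier results of these data known. Alternatives were DESeq2 1.42.0 and its size factors, 2 other filters, the 4 libraries of a comparison alone, the replicate number as a block, each library left out, and each library's loess trend with length (span 0.5) removed. The pathway list under these alternatives, and the p53 and ROR searches, were added after seeing the data. Similar transcripts were searched with BLAST+ 2.17.0 at 95% identity over at least 150 bases.

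Both libraries of a line are separate RNA preparations of the same cells, so p-values measure the spread between preparations. A fit that leaves out a CPN-/- library takes that spread from the CRY lines alone. Its calls against CPN-/- therefore do not carry the spread between the CPN-/- libraries. An exact permutation of 2 against 2 libraries cannot give a p below 0.333. Counts per member were between 780 and 14769 per library.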

Additional observations from a re-analysis of the deposited data

Results flagged for a closer look

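For 2 of the 10 genes the effects of CRY1 and CRY2 differed in the direct comparison of the lines. In that comparison 16.3% of all 14069 tested genes were called, 7.72% higher and 8.57% lower in CPN-/- CRY1. The test was the quasi-likelihood test of edgeR, adjusted by the Benjamini-Hochberg method. The effect of CRY1 minus that of CRY2 on the log2 scale was 0.48 for Cdkn1a (adjusted p = 0.014), which was higher in both CPN-/- CRY1 libraries than in both CPN-/- CRY2 libraries. It was -0.41 for Wee1 (adjusted p = 0.036), which was lower in both CPN-/- CRY1 libraries. Both calls were lost when any 1 of the 4 CRY libraries was left out, with adjusted p from 0.125 to 0.167 for Cdkn1a and from 0.219 to 0.273 for Wee1. For Wee1 the call was also lost with the replicate number as a block (-0.41, adjusted p = 0.052 in edgeR). Groups of 2 libraries cannot be tested for a library that stands apart.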

How the results depend on the processing

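Each result was recomputed in 13 other settings, and over 390 values of the 10 genes 323 kept their direction and side of the threshold, 30 lost a call, 23 gained one and 14 changed sign, none of these in a called value. With only the 4 libraries of a comparison, the number of genes called among all tested genes was 1798 in CPN-/- CRY1 against CPN-/- (3423 with all 6), 473 in CPN-/- CRY2 (937) and 6838 between the CRY lines (2292). Members called were then 1 and 0 against CPN-/-, and genes of the pathway list 6, 1 and 20. The fits with the length trend removed tested only the 12478 genes with a known length. They called 4860 genes in CPN-/- CRY1, 2037 in CPN-/- CRY2 and 3622 between the CRY lines. Members called were 5 and 4 against CPN-/-, and pathway genes were 17, 7 and 12. With at least 10 counts in every library, which also changed the set of genes tested, 583 genes were called in CPN-/- CRY2. Leaving out 1 library at a time, all genes called ranged from 663 to 8980 in CPN-/- CRY1, from 199 to 8046 in CPN-/- CRY2 and from 475 to 6897 between the CRY lines. Members ranged from 1 to 7, from 0 to 6 and from 0 to 3, and pathway genes from 1 to 28, from 0 to 23 and from 0 to 20. Counts rose without a CPN-/- library, where only the CRY pairs gave the spread, and fell without a CRY library. The cause was not tested.

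Among the values that changed sign, none was called in the fit of all libraries. With the length trend removed, Ccne2 was 0.0676 and Cdkn2a 0.0705 in CPN-/- CRY1 against CPN-/-, and Ccne2 was 0.0452, Wee1 0.0726 and Cdk4 0.0837 in CPN-/- CRY2. The other changes of sign came with 1 library left out, where values ranged as follows. With CRY1, Ccnd3 ranged from -0.0664 to 0.0459, Cdkn2b from -0.0872 (-0.0767 without CPN-/- library 1) to 0.234, and Trp53 from -0.0080 to 0.0535. With CRY2, Wee1 ranged from -0.141 to 0.0254, Cdk1 from -0.296 to 0.0281, Cdk4 from -0.213 to 0.0971 and Cdk6 from -0.393 to 0.271. Between the CRY lines, Ccne1 ranged from -0.0091 to 0.0461, Ccne2 from -0.0097 to 0.0754, Cdkn2a from -0.0395 to 0.134 and Cdkn2b from -0.265 to 0.0253.

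The labels give the lines the same replicate numbers, but nothing says that a number marks a shared batch, and deviations of same-numbered libraries correlated at -0.13, 0.23 and -0.09, so the numbers were not taken as pairs. With the replicate number as a block, members called were 3, 2 and 1 in the 3 comparisons, where 3458, 977 and 2188 of all genes were called, and Wee1 between the CRY lines was -0.41 (adjusted p = 0.052 in edgeR). With 2 libraries per line, an uncalled difference of the sizes given here was not shown to be absent.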
